A study of Mus musculus with 9 samples.

Results

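Liver sinusoidal endothelial cells line the smallest blood vessels of the liver, and 10 genes that mark them or endothelium in general were followed in the livers of 9 mice. The genes were taken by name from the 24341 gene names of the deposited table, and all 10 were present with an estimate in every mouse. In livers collected 48 hours (2 days) after anti-CD40, the hyaluronan receptor gene Lyve1 was about 4-fold higher than in control livers, and Pecam1 was also higher. Clec4g, Oit3, Kdr, and Tek were lower, and Stab1, Stab2, Clec1b, and Cdh5 did not pass the test. The list therefore did not move as a block.

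Sinusoidal endothelium is fenestrated, lacks an organized basement membrane, and clears waste molecules from blood through scavenger and lectin receptors. Stab1, Stab2, Lyve1, Clec4g, Clec1b, and Oit3 are rich in these cells, whereas Kdr, Cdh5, Pecam1, and Tek are used by endothelium throughout the body. None of the genes belongs to one cell type alone. Lyve1 also marks lymphatic endothelium and some macrophages, Stab1 is made by macrophages, Clec1b by platelets, and Pecam1 by platelets and leukocytes.

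All mice were wild-type C57BL/6. There were 3 mice given an antibody that activates CD40 (FGK45, here anti-CD40; mice 2, 5, and 9) and 6 control mice given PBS (mice 3, 4, 7, 8, 11, and 12), with no control antibody. The age of these mice is not in the labels, and the study's methods state that some mice given anti-CD40 were excluded when their blood B cells had not fallen. Whole liver was measured, so fewer cells of a type and less RNA per cell cannot be told apart. The values are FPKM, a read count divided by transcript length and by a measure of library size. How that size was set is not given in the sources used here. The libraries read each transcript from its 3′ end. In such libraries the division by length makes levels of 2 genes not comparable, but it drops out of any fold change taken within 1 gene.

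Total reads are unknown. The library size used in the values, read from the steps between low values, lay between 0.870 and 1.13 of the geometric mean of the 9 mice. That size need not equal sequencing depth. The labels name no batch, and nothing in them says how the mice were housed or processed together. The livers of the anti-CD40 mice also differed in their other cells. Summed FPKM of 10 leukocyte markers lay between 346 and 473 after anti-CD40 and between 44.4 and 80.3 in control mice, and 9 of the 10 were higher. Summed FPKM of 7 Kupffer cell markers lay between 39.1 and 50.7 against 290.1 to 466, all 7 were lower, and the defining marker Clec4f was 0.01, 0.218, and 0.0938 in mice 2, 5, and 9 given anti-CD40. A pair of libraries stood apart. The summed FPKM of exocrine pancreas markers was 1142 in anti-CD40 mouse 5 and at most 196 elsewhere, and that of erythroid markers was 50525 in control mouse 4 and at most 14317 elsewhere.

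**Figure D1:**
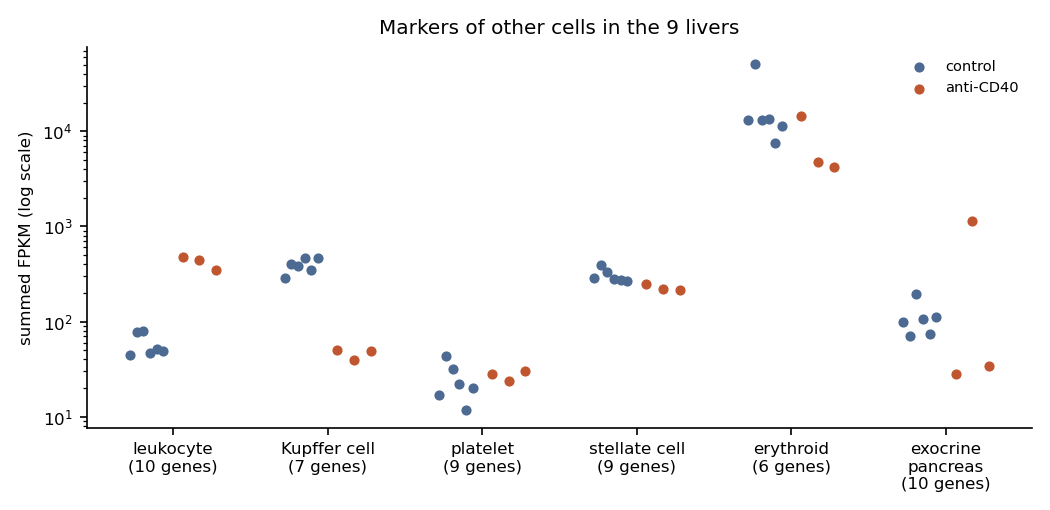
Summed FPKM (log scale) of 6 lists of markers of other cells, 1 point per liver, with control mice in blue and anti-CD40 mice in orange. Leukocyte markers lay between 346 and 473 after anti-CD40 against 44.4 to 80.3, Kupffer cell markers between 39.1 and 50.7 against 290.1 to 466, and 1 anti-CD40 liver reached 1142 for pancreas markers.

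RefSeq promoter windows on GRCm38.p6, from 250 bases before to 50 bases after the start of the gene, were held for 6 of the 10 genes (Stab1, Stab2, Clec4g, Clec1b, Kdr, and Tek). Windows were read for AGATAA, a site of GATA factors such as the sinusoidal regulator GATA4, and for CCGGAA and ACAGGAA, sites of ETS factors such as ERG, on both strands. No pair of these motifs overlaps in a window shown. The windows of the 3 genes that were lower after anti-CD40 and had one are shown because these genes carry the decrease described below, with motif letters in capitals. They lie at chr8:3720602-3720901 (minus strand) for Clec4g, chr5:75978406-75978705 (minus strand) for Kdr, and chr4:94739039-94739338 (plus strand) for Tek.
Clec4g: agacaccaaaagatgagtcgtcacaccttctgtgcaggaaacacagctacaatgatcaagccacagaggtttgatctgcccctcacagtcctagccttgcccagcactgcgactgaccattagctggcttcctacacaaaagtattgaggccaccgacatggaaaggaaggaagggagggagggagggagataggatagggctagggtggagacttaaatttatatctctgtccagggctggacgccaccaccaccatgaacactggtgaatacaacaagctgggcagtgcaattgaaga
Kdr: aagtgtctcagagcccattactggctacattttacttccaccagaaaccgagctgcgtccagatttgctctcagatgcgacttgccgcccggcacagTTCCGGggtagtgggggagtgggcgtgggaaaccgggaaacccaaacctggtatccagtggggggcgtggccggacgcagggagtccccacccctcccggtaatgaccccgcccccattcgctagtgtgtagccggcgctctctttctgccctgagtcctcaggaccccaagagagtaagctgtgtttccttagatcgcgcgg
Tek: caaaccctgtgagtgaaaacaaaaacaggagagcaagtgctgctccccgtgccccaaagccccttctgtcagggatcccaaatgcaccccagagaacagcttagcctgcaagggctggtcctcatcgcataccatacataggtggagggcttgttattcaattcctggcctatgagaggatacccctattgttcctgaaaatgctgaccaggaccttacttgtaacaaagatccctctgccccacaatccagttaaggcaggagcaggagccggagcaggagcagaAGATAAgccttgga
The capitals in Tek are AGATAA at 37 to 42, counted from the start of the gene as 1, and those in Kdr are the complement of CCGGAA, at -153 to -148. The Clec4g window held none of the 3 motifs. Clec1b, which did not pass the test, held AGATAA at 38 to 43, Stab1 held the complement of ACAGGAA at -13 to -7, and Stab2 held none. Of 32851 RefSeq windows of this length, 11.2% held AGATAA, 14.9% held CCGGAA, and 8.67% held ACAGGAA. A match of letters is a description and not a measured site.

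The 10 genes were tested together with every other gene in 1 limma fit on log2(FPKM + 0.1), with Benjamini-Hochberg adjustment over 13807 genes, a scale that understates the change of low genes. Of the 10, 2 were higher and 4 lower (adjusted p under 0.05), against a background of 23.5% of all genes tested higher and 21.7% lower. Non-overlapping groups were found for 3 of the 10 (Lyve1, Clec4g, and Oit3), whereas 42.4% of all genes tested had groups that did not overlap. The median log2 fold change of the 10 genes was -0.22, and that of all genes tested was 0.0056. The serum amyloid genes Saa1, Saa2, and Saa3 rose steeply in these livers and are part of each FPKM total. When they were left out and every mouse was rescaled to the same total, the median of all genes moved to 0.35. The 3240 higher and 2990 lower genes became 5635 higher and 1647 lower, and the 10 genes became 4 higher and 2 lower. Leaving out 3 genes changes no other value by itself, so the other values moved only through the rescaling, whose totals lack these 3 genes. Setting the totals equal with these genes kept was not run. Below, leaving out the Saa genes stands for both steps together. Median-of-ratios scaling, by the median over genes of each gene's ratio to its mean level, gave a median of 0.0085, with 3254 higher and 2968 lower. Lyve1, Clec4g, Oit3, and Pecam1 were called in the same direction with and without the rescaling to equal totals, and Kdr and Tek lost their call, as given below.

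**Figure D2:**
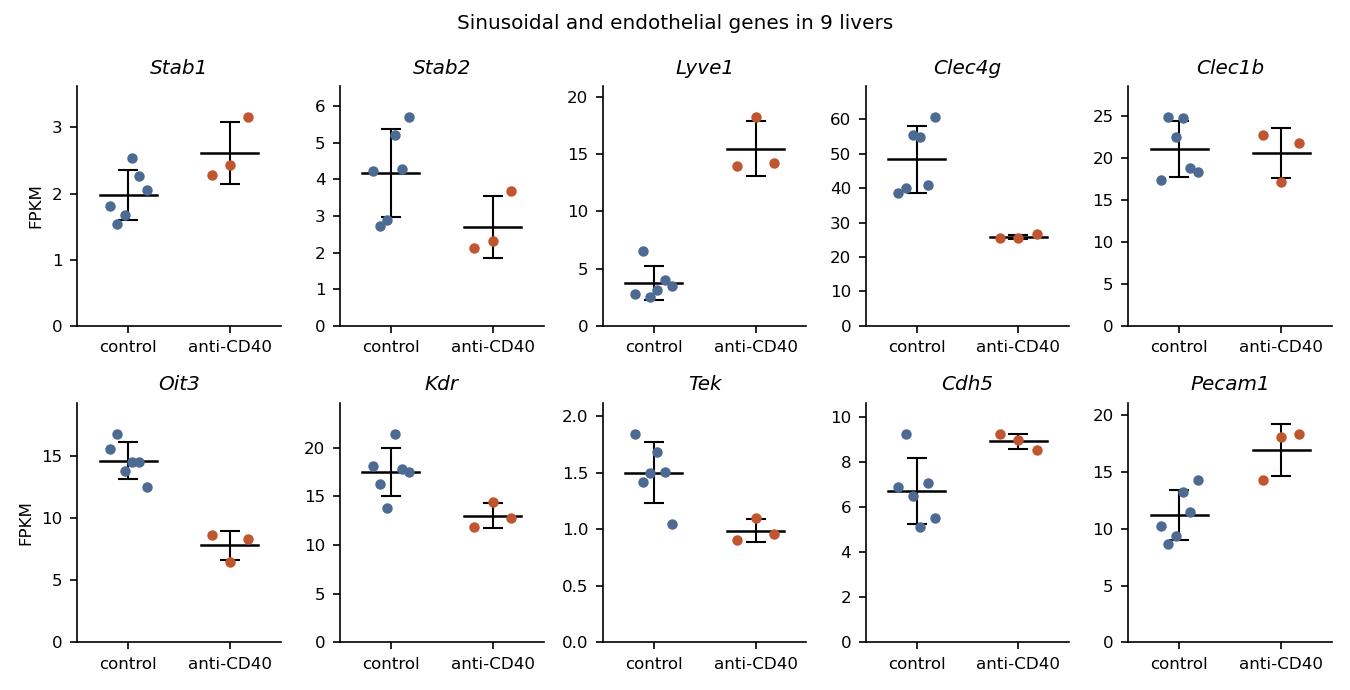
FPKM of each of the 10 genes in each liver (points), with the group mean and SD (black), for 6 control and 3 anti-CD40 mice; each panel has its own axis from 0. The groups did not overlap for Lyve1 (higher after anti-CD40), Clec4g, and Oit3 (both lower).

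Among the receptors that take up hyaluronan and modified proteins, Lyve1 changed most. Lyve1 encodes a hyaluronan receptor and lies at chr7:110850607-110862953 on the minus strand of mm10. Its FPKM was 13.9, 18.2, and 14.2 in mice 2, 5, and 9 given anti-CD40, and ranged from 2.51 through a median of 3.29 to 6.57 in control mice. Every anti-CD40 liver had more than double the highest control. The means were 15.4 ± 2.40 (SD, n = 3) and 3.74 ± 1.48 (SD, n = 6), for a log2 fold change of 2.08 (SE 0.26, limma adjusted p = 0.000124), or 4.23-fold. An exact permutation test, over 84 ways to split the mice, gave p = 0.0238 (2-sided), the smallest it can give. The fold change of Lyve1 was above that of 94.9% of all genes tested, and it stayed past the threshold in 21 of 21 alternative settings, with log2 values from 1.84 to 2.44.

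Because Lyve1 also marks lymphatic endothelium, the lymphatic markers are given beside it. Of 6 such genes, Pdpn and Flt4 were higher, Reln was lower, and Prox1, Ccl21a, and Mmrn1 did not pass the test. Reln is also among the stellate cell markers given below and is counted in both lists. Prox1, the transcription factor that defines lymphatic endothelium but is also made by hepatocytes, had FPKM of 2.44, 3.28, and 3.91 after anti-CD40 and 1.78 to 3.47 in control mice. The summed FPKM of the list ranged from 38.5 to 46.0 after anti-CD40 and from 18.5 to 34.7 in control mice. Pdpn gave most of the sum after anti-CD40 and was the largest of the 6 values in every liver. The part of lymphatic cells or macrophages in the Lyve1 values was not tested.

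Stab1 and Stab2 encode a pair of related scavenger receptors, stabilin-1 and stabilin-2, and their estimates had opposite signs. Stab2, at chr10:86841210-87007942 (minus strand), had FPKM of 2.11, 2.33, and 3.67 in mice 2, 5, and 9 given anti-CD40, against a lowest value of 2.73, a median of 4.25, and a highest of 5.70 in control mice. Mice 2 and 5 were below every control, and mouse 9 lay within their range. The log2 fold change was -0.60 with a 95% confidence interval of -1.18 to -0.012, and the adjusted p from limma was 0.0898. Stab2 passed the threshold in 4 of the 21 alternatives: with array weights (limma adjusted p = 0.0485), with quantile normalization (0.0383), without anti-CD40 mouse 9 (0.0449, log2 fold change -0.83), and without control mouse 4 (0.0370, log2 fold change -0.71).

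Stab1 had FPKM of 2.28, 2.43, and 3.15 in mice 2, 5, and 9 given anti-CD40, and 1.54 to 2.54 in control mice with a median of 1.93. The groups overlapped, and the log2 fold change of 0.39 (95% CI -0.011 to 0.80) had an adjusted p of 0.104 from limma. It passed under 1 of 21 alternatives, the rescaling without the Saa genes, at a log2 fold change of 0.75 (limma adjusted p = 0.00439). The table gives Stab1 the interval chr14:31134853-31168641, which it also gives to Nt5dc2. In GENCODE M21 (GRCm38) Stab1 spans chr14:31139013-31168641 on the minus strand and Nt5dc2 spans chr14:31131053-31139124 on the plus strand, so their 3′ ends overlap. The strand setting of the counting is not given in the sources used here, and the Stab1 level is therefore uncertain. Nt5dc2 itself had a log2 fold change of 0.38 (limma adjusted p = 0.185).

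Of the 2 C-type lectin genes, Clec4g was lower and Clec1b did not pass the test. Clec4g encodes LSECtin, a lectin of sinusoidal endothelium, and lies at chr8:3716071-3720651 (minus strand). It had FPKM of 25.6, 25.4, and 26.6 in mice 2, 5, and 9 given anti-CD40, a coefficient of variation of 2.42%, whereas control livers ranged from 38.5 through a median of 47.9 to 60.6. All 3 anti-CD40 livers were below all 6 controls. The means of 25.9 ± 0.625 (SD, n = 3) and 48.4 ± 9.67 (SD, n = 6) gave a log2 fold change of -0.88 (SE 0.16, limma adjusted p = 0.00147, exact permutation p = 0.0238). Clec4g fell in all 21 alternatives, by log2 values from -0.94 to -0.51, the smallest with the Saa genes left out.

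Clec1b encodes CLEC-2, a receptor for podoplanin (the product of Pdpn), and lies at chr6:129397297-129405413 (plus strand). It had FPKM of 22.8, 17.1, and 21.7 in mice 2, 5, and 9 given anti-CD40, and 17.4 to 24.8 in control mice with a median of 20.6. The anti-CD40 values lay across almost the same range as the controls, and mouse 5 was lowest of all 9 by a small margin. The log2 fold change was -0.03 with a 95% confidence interval of -0.38 to 0.31 (limma adjusted p = 0.875, exact permutation p = 0.810). Clec1b is also a platelet gene. Of 8 platelet and megakaryocyte markers tested, 3 were higher and none lower, with summed FPKM of 23.6 to 30.4 after anti-CD40 and 11.7 to 43.4 in control mice. How much of the Clec1b level came from platelets was not tested.

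Oit3, which encodes a secreted protein with EGF and zona pellucida domains, fell by about as much as Clec4g. It lies at chr10:59422960-59441779 (minus strand). FPKM was 8.66, 6.49, and 8.30 in mice 2, 5, and 9 given anti-CD40, against 12.5 to 16.8 in control mice with a median of 14.5. The groups were well apart, with means of 7.82 ± 1.16 (SD, n = 3) and 14.6 ± 1.47 (SD, n = 6). The log2 fold change of -0.90 (SE 0.13) had an adjusted p of 0.000316 from limma and an exact permutation p of 0.0238. It passed in all 21 alternatives, with log2 values from -0.98 to -0.53.

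The endothelial growth factor receptors Kdr and Tek were both lower. Kdr encodes VEGFR2, the main signaling receptor for VEGF-A, and lies at chr5:75933270-75978428 (minus strand). Its FPKM was 11.9, 14.4, and 12.8 in mice 2, 5, and 9 given anti-CD40, and 13.8 to 21.4 in control mice with a median of 17.7. Mouse 5 lay above the lowest control, mouse 7, so the groups overlapped. The log2 fold change was -0.42 (SE 0.14, limma adjusted p = 0.0320, exact permutation p = 0.0476). The call held in 13 of 21 alternatives. It was lost with the Saa genes left out (log2 fold change -0.05, limma adjusted p = 0.758), with no filter on low values (0.0530), with quantile normalization (0.0538), and without anti-CD40 mouse 2 (0.132), anti-CD40 mouse 9 (0.0937), control mouse 3 (0.0584), or control mouse 11 (0.0561), as it was at an adjusted p under 0.01.

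Tek encodes TIE2, the receptor for the angiopoietins, and lies at chr4:94739289-94874976 (plus strand). Its FPKM was 0.903, 1.103, and 0.959 in mice 2, 5, and 9 given anti-CD40, and 1.05 to 1.84 in control mice with a median of 1.503. Only control mouse 12 lay within reach of the anti-CD40 livers. The means of 0.988 ± 0.103 (SD, n = 3) and 1.499 ± 0.270 (SD, n = 6) gave a log2 fold change of -0.54 (SE 0.18, limma adjusted p = 0.0297, exact permutation p = 0.0476). Tek was the only one of the 10 genes low enough for whole reads to be read from the values (within 0.03 of a whole number): 87, 100, and 81 reads in mice 2, 5, and 9 given anti-CD40, and 82 to 153 in control mice. Counting alone gives such numbers an error of 8.08% to 11.1%. The call held in 12 of 21 alternatives and was lost with the Saa genes left out (log2 fold change -0.20, limma adjusted p = 0.387), with no filter (0.0539), at an adjusted p under 0.01, and without anti-CD40 mouse 2 (0.112), anti-CD40 mouse 9 (0.0899), or control mice 3 (0.0553), 8 (0.0546), or 11 (0.0509). Leaving out control mouse 4 and anti-CD40 mouse 5 together, a choice made after the data were seen, also ended it (limma adjusted p = 0.0514).

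The 2 adhesion genes of endothelial junctions did not move down with the receptors. Pecam1 encodes CD31 and lies at chr11:106654213-106715281 (minus strand). Its FPKM was 14.3, 18.1, and 18.4 in mice 2, 5, and 9 given anti-CD40, and 8.70 to 14.3 in control mice with a median of 10.9. Mice 5 and 9 were above every control, and mouse 2 was level with the highest control, mouse 12. The log2 fold change of 0.60 (SE 0.17) had an adjusted p of 0.0168 from limma and an exact permutation p of 0.0476. Pecam1 passed in 17 of 21 alternatives and no longer did so without anti-CD40 mouse 5 (limma adjusted p = 0.0682), without anti-CD40 mouse 9 (0.0729), without mouse 5 and control mouse 4 together (0.0784), or at an adjusted p under 0.01. Leukocytes and platelets also make Pecam1, and the leukocyte marker Ptprc rose from a control range of 1.14 to 3.14 FPKM to 9.79 to 12.2. The part of these cells in the Pecam1 values was not tested.

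Cdh5 encodes VE-cadherin, the adhesion molecule of endothelial junctions, and lies at chr8:104088916-104144502 (plus strand), an interval that the table also gives to Gm29682. Its FPKM was 9.23, 8.95, and 8.55 in mice 2, 5, and 9 given anti-CD40, and 5.11 to 9.24 in control mice with a median of 6.69. Only control mouse 4 reached the anti-CD40 livers. The log2 fold change of 0.43 (95% CI 0.044 to 0.81) had an adjusted p of 0.0666 from limma and an exact permutation p of 0.0952. Cdh5 passed in 4 of 21 alternatives: without control mouse 4 (0.52, limma adjusted p = 0.00928), with the Saa genes left out (0.79, 0.00707), with array weights (0.43, 0.0148), and without control mouse 4 and anti-CD40 mouse 5 together (0.52, 0.0330). In the other 17 it did not pass, with an adjusted p of up to 0.174, reached without anti-CD40 mouse 2.

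**Figure D3:**
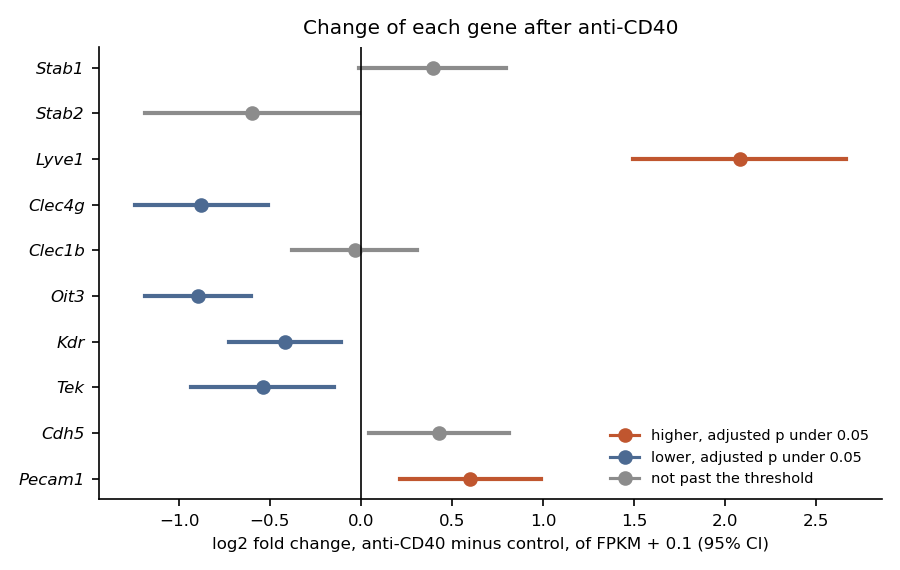
Log2 fold change (anti-CD40 minus control, of FPKM + 0.1) of each of the 10 genes with its 95% confidence interval from limma, colored where the adjusted p was under 0.05. Lyve1 stands alone at 2.08, Clec4g and Oit3 lie at -0.88 and -0.90, and the interval of Clec1b runs from -0.38 to 0.31.

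Relative to Cdh5 in the same liver, Clec4g, Oit3, Kdr, and Tek were lower and Lyve1 was higher. A ratio of this kind cancels a factor common to a library, apart from the pseudocount, and asks whether the genes moved by unequal amounts. All 9 ratios share the Cdh5 values and are not independent, and a ratio of bulk values does not show which gene of the pair moved. Cdh5 itself had a log2 fold change of 0.43 (95% CI 0.044 to 0.81). Whether reads of Gm29682, given the same interval, enter the Cdh5 values is not known from the sources used here. The log2 ratio of Lyve1 to Cdh5 was 0.59, 1.02, and 0.72 in mice 2, 5, and 9 given anti-CD40 and between -1.34 and -0.49 in control mice, a difference of 1.65. For Clec4g it was 1.46, 1.49, and 1.63 against 2.104 to 3.44, a difference of -1.31. For Oit3 it was -0.09, -0.46, and -0.04 against 0.85 to 1.49, a difference of -1.33. None of these 3 ratios overlapped between the groups.

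The ratios of Kdr and Tek were also lower without overlap, by -0.84 and -0.97. Each of the 5 non-overlapping ratios had an exact permutation p of 0.0238 (2-sided, 84 splits), the smallest possible, and 0.0429 after adjustment over the 9 ratios. A single ratio at this smallest p could not pass after the adjustment, so each pass depended on the other ratios. Stab2 (-1.03) and Clec1b (-0.46) had overlapping ratios, with an exact permutation p of 0.0476 each and 0.0612 after adjustment over the 9 ratios. Stab1 differed by -0.03 (exact permutation p = 0.952) and Pecam1 by 0.17 (exact permutation p = 0.619). These 9 results were on the same side of the threshold under both other pseudocounts and the 3 other scalings. The Saa rescaling and median-of-ratios scaling multiply each liver by 1 factor, which a ratio cancels apart from the pseudocount. Those settings could hardly change a ratio and are no test of it, unlike quantile normalization.

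**Figure D4:**
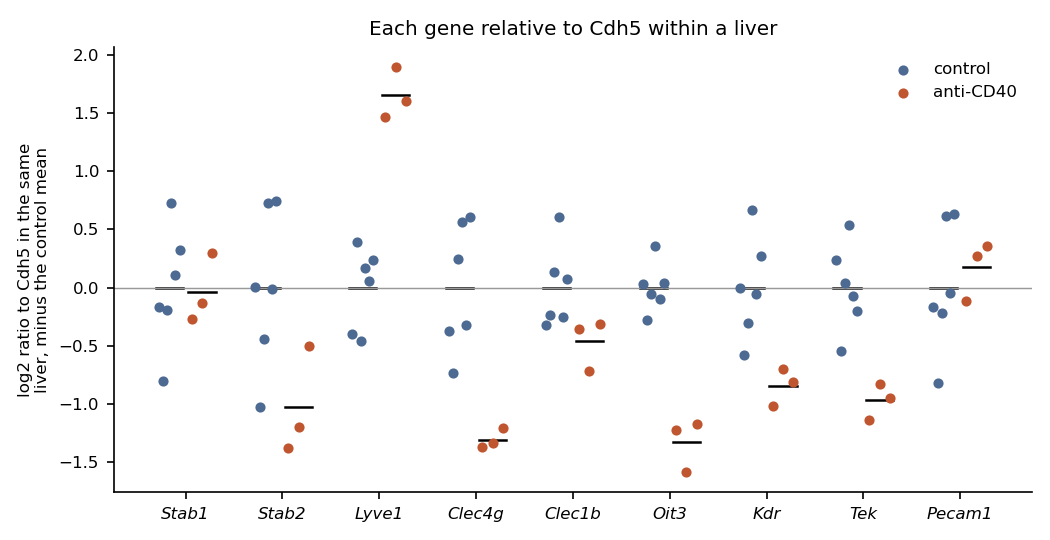
Log2 ratio of each gene to Cdh5 in the same liver, set to 0 at the mean of the 6 control mice (blue); anti-CD40 mice are orange and bars are group means. Lyve1 sits 1.65 above the control mean, Clec4g and Oit3 sit 1.31 and 1.33 below it, and Stab1 and Pecam1 overlap the controls.

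Other endothelial genes were read in 6 lists compiled from general knowledge. Of 88 genes tested in the lists, 28 (31.8%) were higher and 22 (25.0%) lower, beside 23.5% and 21.7% of all genes tested. Among 22 further sinusoidal genes, 6 were higher and 7 lower, with a median log2 fold change of -0.27. Among 27 general endothelial genes, 5 were higher and 6 lower, with a median of 0.090. Among 12 genes of continuous and capillary endothelium, 6 were higher and 1 lower, with a median of 0.60. The higher genes were Col4a1, Col4a2, Lamc1, Cd9, Cd34, and Apln, and the lower gene was Vwf. Plvap, Lama4, Lamb1, Ednrb, and Esm1 did not pass. The largest increases and decreases named from each list are on the log2(FPKM + 0.1) scale. With the Saa genes left out these medians became 0.095, 0.44, and 0.93, so that the sign of the sinusoidal median depends on the scaling. The median of all genes tested was then 0.35. Counts moved too. With the Saa genes left out, 40.7% of all genes tested were higher and 11.9% lower. The further sinusoidal genes then gave 9 higher and 4 lower, the general endothelial genes 9 and 2, and the continuous and capillary genes 7 and 1. The 7 lower sinusoidal genes became 4 without any 1 of the 3 anti-CD40 mice, and the 6 higher became 3 without mouse 2. The 6 higher continuous and capillary genes became 3 without anti-CD40 mouse 2 or mouse 5, and the 1 lower became 2 without control mouse 4. Of the genes named from the lists, Mrc1, Angpt2, Nos3, and Cd34 each share an interval with another gene in the table. Some genes that are counted in the lists but not named share one too.

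**Figure D5:**
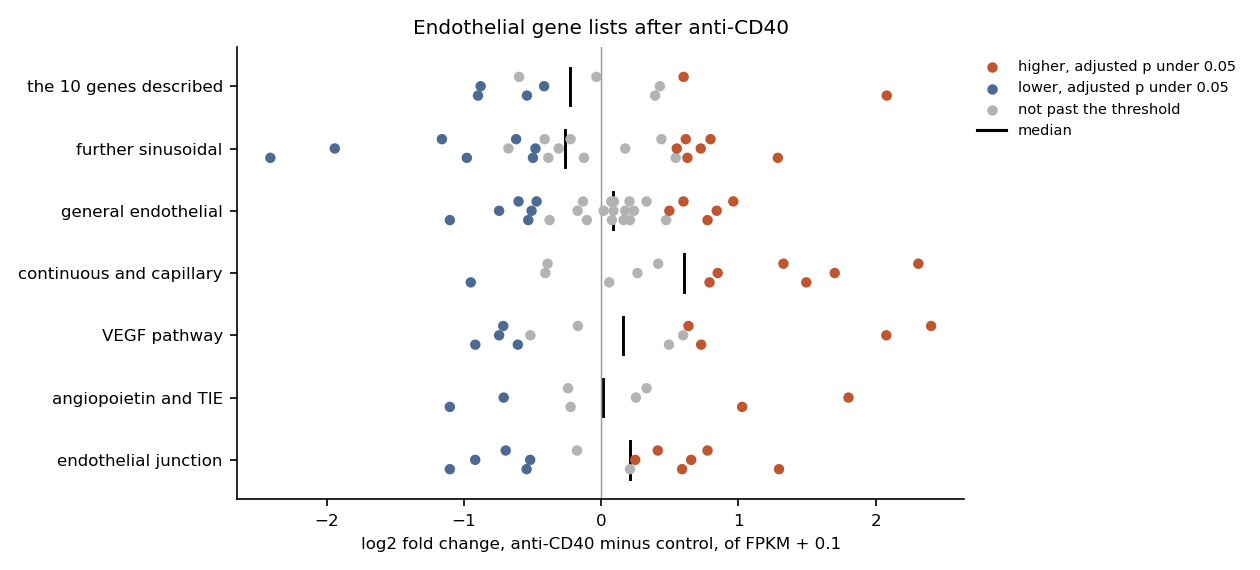
Log2 fold change (anti-CD40 minus control, of FPKM + 0.1) of every tested gene in the 10-gene list and 6 further lists, 1 point per gene, with the list median as a bar; orange and blue mark an adjusted p under 0.05. The median was 0.60 for continuous and capillary genes and -0.27 for further sinusoidal genes. A gene in more than 1 list appears in each.

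Among the further sinusoidal genes, Fcna and Ehd3 fell most. Ehd3 encodes a membrane trafficking protein of sinusoidal endothelium, and its FPKM was 6.71, 6.56, and 7.45 in mice 2, 5, and 9 given anti-CD40 against 19.5 to 31.5 in control mice, and the log2 fold change was -1.94 (limma adjusted p = 7.42e-06). Fcna, a ficolin also known as a macrophage gene, had a log2 fold change of -2.41 (limma adjusted p = 3.85e-06), in livers whose 7 Kupffer cell markers were all lower. The part of Kupffer cells in the Fcna values was not tested. The largest increase was Thbd, which encodes the anticoagulant receptor thrombomodulin. Its FPKM was 4.94, 5.54, and 7.47 against 1.82 to 2.97, a log2 fold change of 1.29 (limma adjusted p = 0.000364). In these livers 9 of 10 leukocyte markers were higher, and the part of leukocytes in the Thbd values was not tested. Tfec, a transcription factor that macrophages also make, had a log2 fold change of 0.80 (limma adjusted p = 0.0134).

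Sinusoidal endothelium sends WNT and BMP signals to hepatocytes, and Wnt2 and Bmp2 passed the test, both with lower values. Wnt2, an angiocrine WNT ligand, had FPKM of 2.55, 2.69, and 3.83 in mice 2, 5, and 9 given anti-CD40 and 3.04 to 9.33 in control mice (107 to 142 reads against 120 to 321), a log2 fold change of -1.16 (limma adjusted p = 0.0134). The lowest control was mouse 4, and the other 5 controls were above all anti-CD40 livers by their reads. Bmp2, which drives hepcidin expression in hepatocytes, fell by 0.50 on the log2 scale (limma adjusted p = 0.0113) with groups that did not overlap. Wnt9b (-0.38, limma adjusted p = 0.372) and Rspo3 (-0.22, 0.368), both of the central vein region, did not pass. Of the transcription factors of sinusoidal identity, neither Gata4 (-0.41, limma adjusted p = 0.0627) nor Maf (-0.31, 0.0700) passed.

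The endocytic receptor genes Mrc1 and Fcgr2b, shared with macrophages, had log2 fold changes of -0.62 (limma adjusted p = 0.0334) and 0.63 (0.0257). The receptor gene Gpr182 had -0.48 (0.0429), Kit had 0.55 (0.0363), and the nuclease gene Dnase1l3 had 0.44 (0.09997). The calls of Mrc1, Gpr182, and Kit held in 11, 10, and 12 of 21 alternatives, and those of Fcgr2b, Wnt2, and Bmp2 in 17, 17, and 18. Leaving out anti-CD40 mouse 2 ended the calls of Mrc1, Fcgr2b, Gpr182, Wnt2, Kit, and Tfec, at adjusted p of 0.0610 to 0.106 from limma. Without mouse 5 those of Mrc1, Gpr182, Wnt2, and Kit ended (0.0518 to 0.181), and without mouse 9 those of Mrc1, Fcgr2b, Gpr182, Bmp2, and Kit (0.0663 to 0.101). Among single control mice, leaving out mouse 3 ended those of Mrc1 and Gpr182, mouse 7 that of Mrc1, mouse 11 that of Gpr182, and mice 8 and 12 those of Gpr182 and Kit, at 0.05004 to 0.0697. Mrc1, Gpr182, and Bmp2 also lost their calls with the Saa genes left out, at -0.26, -0.12, and -0.13.

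In the VEGF pathway 4 of 12 genes were higher and 4 lower, beside 23.5% and 21.7% of all genes tested. The 4 lower became 1 with the Saa genes left out or without anti-CD40 mouse 2, and 2 without anti-CD40 mouse 5. The 4 higher stayed 4 with the Saa genes left out, when 40.7% of all genes tested were higher and 11.9% lower. Flt1, which encodes VEGFR1, was 1.42, 1.59, and 1.48 FPKM in mice 2, 5, and 9 given anti-CD40 against 1.90 to 2.96 in control mice, and the log2 fold change was -0.74 (limma adjusted p = 0.00343). Flt4, which encodes VEGFR3, was 4.39, 4.09, and 5.28 FPKM against 2.34 to 3.69, a log2 fold change of 0.64 (limma adjusted p = 0.00820). Both passed in 21 of 21 alternatives, so the VEGF receptor genes did not share a direction.

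The ligand Pgf, placental growth factor, rose from 0 to 4 reads per control liver to 15 to 23 reads (log2 fold change 2.40, limma adjusted p = 0.000789). Sh2d2a, which encodes a VEGFR2 adaptor also made by T cells, had a log2 fold change of 2.08 (limma adjusted p = 0.000628). Vegfa, the main ligand of Kdr and a product of hepatocytes among other cells, was 9.94, 9.70, and 9.86 FPKM against 11.9 to 24.3 (log2 fold change -0.71, limma adjusted p = 0.0208). Vegfd, listed as Figf, had -0.92 (limma adjusted p = 0.0217). Both lost their calls with the Saa genes left out, at -0.35 for Vegfa and -0.61 for Vegfd, and without anti-CD40 mouse 2 or mouse 5. Vegfa also lost its call without mouse 9. The adjusted p of these 2 genes without 1 of those mice was 0.0578 to 0.0838 from limma.

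In the angiopoietin pathway of Tek, 2 of 8 genes tested were higher and 2 lower, shares of 25.0% each beside 23.5% and 21.7% of all genes tested. With the Saa genes left out 4 were higher and 1 lower, beside 40.7% and 11.9% of all genes tested. Without anti-CD40 mouse 2 or mouse 9, 1 was higher and 1 lower, and without anti-CD40 mouse 5 or any 1 of control mice 3, 7, 11, and 12, 1 was higher. Dok2, which encodes an adaptor of TIE2 that leukocytes also make, rose to 6.57, 6.73, and 7.15 FPKM from 1.35 to 2.34 in control mice (log2 fold change 1.80, limma adjusted p = 1.36e-05). Ptprb, the phosphatase VE-PTP that acts on TIE2 and VE-cadherin, was 2.16, 2.70, and 2.60 FPKM against 4.73 to 6.67, a log2 fold change of -1.10 (limma adjusted p = 0.000159). Tie1, the partner receptor, had 0.33 (limma adjusted p = 0.225), and the adaptor gene Grb14 had -0.71 (0.0108). Grb14 lost its call with the Saa genes left out (-0.35) and without anti-CD40 mouse 2 (limma adjusted p = 0.0517) or mouse 9 (0.0512).

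Angpt2, the ligand that endothelium releases on activation, had 82, 78, and 67 reads in mice 2, 5, and 9 given anti-CD40 and 18 to 30 reads in 5 of 6 control livers, but 99 reads in control mouse 4. Its log2 fold change was 1.03 (SE 0.37, limma adjusted p = 0.0440). The call held in 8 of 20 alternatives and was lost when any 1 mouse other than control mouse 4 was left out, at adjusted p of 0.0717 to 0.115 from limma.

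Among the genes of continuous and capillary endothelium, the basement membrane collagens had the largest called increases on the log2(FPKM + 0.1) scale. That scale shrinks low genes, such as Apln in the same list, which had 20, 20, and 7 reads in mice 2, 5, and 9 given anti-CD40 and 0 to 4 in control mice and is named here after its values were seen. Col4a1 was 15.9, 17.02, and 13.9 FPKM in mice 2, 5, and 9 given anti-CD40 against 2.73 to 3.65 in control mice (log2 fold change 2.31, limma adjusted p = 8.92e-07), and Col4a2 had a log2 fold change of 1.70 (limma adjusted p = 0.000191). Other cells, stellate cells among them, also make these collagens, and 3 of 9 stellate cell markers were higher and 3 lower (summed FPKM 216 to 248.9 after anti-CD40 and 269 to 397 in control mice). Their part in the collagen values was not tested. Vwf, von Willebrand factor, a gene of large vessels, fell to 10 to 17 reads from 29 to 48 in control livers (log2 fold change -0.95, limma adjusted p = 0.00188). Cd34, a marker of capillary endothelium, had 0.85 (limma adjusted p = 0.0369), a call held in 11 of 21 alternatives and lost without any 1 of the 3 anti-CD40 mice or of control mice 3, 8, 11, and 12 (adjusted p from 0.0593 to 0.113 by limma). Plvap, the diaphragm protein of fenestrae, had 0.06 (95% CI -0.37 to 0.49).

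Among general endothelial genes, Mmrn2 (log2 fold change 0.96, limma adjusted p = 0.000490) and the ETS factor gene Fli1 (0.84, 0.00642), which leukocytes share, rose most, and Ptprb and Flt1 fell most. The ETS factor gene Erg (0.16, limma adjusted p = 0.568), Nos3 (0.18, 0.589), and the flow-responsive factor gene Klf2 (0.09, 0.677) did not pass. Of 13 further genes of endothelial junctions, 6 were higher and 5 lower, beside 23.5% and 21.7% of all genes tested. The 6 higher became 2 without anti-CD40 mouse 2 or mouse 9, and 3 without anti-CD40 mouse 5 or any 1 of control mice 3, 8, 11, and 12. The 5 lower became 2 with the Saa genes left out, when 11.9% of all genes tested were lower, and 3 without anti-CD40 mouse 5. Jam2 (1.30, limma adjusted p = 0.000434) and Esam (0.77, 0.000200), both adhesion molecules, rose most, and Ocln (-0.92, 0.00180), the tight junction gene that hepatocytes and cholangiocytes also use, fell most beside Ptprb. Of 8 hepatocyte markers 2 were higher and 5 lower, with summed FPKM of 18694 to 21166 after anti-CD40 and 19046 to 39336 in control mice. Most of the sum after anti-CD40 was Trf (14414 to 15836 FPKM), which was higher. Alb, Apoa1, Ttr, Serpina1c, and Cyp2e1 were lower, and Alb was 774 to 1075 FPKM against 4063 to 6626. Of 6 cholangiocyte markers 2 were higher, Sox9 and Spp1, with summed FPKM of 68.7 to 98.8 against 9.01 to 17.8. Most of the sum after anti-CD40 came from Sox9 and Spp1, and Krt19, Krt7, Epcam, and Cldn7 did not pass the test. The part of these cells in the values of Ocln and of the other junction genes counted was not tested.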

How the data were processed

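RNA from the livers of 9 mice was made into 3′ end libraries and sequenced by the authors, who aligned reads with STAR to mm10 and ran Cufflinks and CuffDiff. The authors deposited FPKM values in which 0.01 is the lowest value and failed estimates are marked. The annotation, the strand setting, and the read totals are not given in the sources used here. Left out were 15 genes whose estimate failed somewhere, none of them among the 10 described. Tests ran in R 4.3.3 with limma 3.58.1 (lmFit, eBayes with a trend) on log2(FPKM + 0.1), 2-sided, at an adjusted p of 0.05, over genes averaging 0.1 FPKM or more. Exact permutation p-values are 2-sided, from the smaller tail doubled, over 84 splits. The control and anti-CD40 mice carry different numbers, and nothing in the labels says how animals were housed, so p-values measure the spread between these livers. Whole reads, where given, are the smallest whole numbers that match the steps between low values (up to 400 reads).

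The 10 genes, the lists, and the tests were chosen with earlier results of these data known. Genes named from the lists were 23 chosen by name whatever their values and, in each list, up to 2 called genes with the largest increase and 2 with the largest decrease. All tested genes of the continuous and capillary list were also named with their calls, after the values were seen. Alternatives were 2 other pseudocounts, 2 other filters, 3 other scalings, eBayes without trend or robust, array weights, a threshold of 0.01, and leaving out each mouse. Leaving out control mouse 4 and anti-CD40 mouse 5 together was added after the data were seen. The scripts (Python 3.11.15, numpy 2.4.6, pandas 2.3.3, matplotlib 3.10.9) were tested on simulated data.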

Additional observations from a re-analysis of the deposited data

Results flagged for a closer look

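Values far from the others were looked for among the 6 control mice, by the gap from the outermost mouse to its neighbor divided by the whole range (Dixon's ratio, 95% critical value 0.625 for 6 samples). In the 33 genes looked at, chance gives about 1.65 such values, and 4 were found, all in control mouse 4. In that mouse Lyve1 was highest (6.57 FPKM, ratio 0.642), Erg was highest (4.09 FPKM, ratio 0.687), Angpt2 was highest (1.43 FPKM, ratio 0.882), and Wnt9b was lowest (0.157 FPKM, ratio 0.633). The same liver had the highest summed FPKM of erythroid markers (50525, against 7493 to 13468 in the other controls). Of the 10 genes described, control mouse 4 was the highest control for 4 and the lowest for 3. Whether these values share an origin was not tested. Without control mouse 4, Lyve1 remained higher (log2 fold change 2.26, adjusted p = 6.95e-06 from limma). The counts over the 10 genes were then 3 higher and 5 lower, beside 25.8% and 23.7% of all genes tested.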

How the results depend on the processing

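Across the alternatives, Lyve1 stayed higher and Clec4g and Oit3 stayed lower past the threshold in all 21. The 9 ratios to Cdh5 kept their side of the threshold under both other pseudocounts and quantile normalization. They also did so under the Saa rescaling and median-of-ratios scaling, which a ratio cancels almost wholly. With 1 mouse left out the ratios are values with no test, and the 5 lower or higher ones ranged from 1.53 to 1.75 for Lyve1, -1.45 to -1.18 for Clec4g, -1.40 to -1.19 for Oit3, -0.96 to -0.71 for Kdr, and -1.08 to -0.86 for Tek. With the Saa genes left out, 4 of the 10 genes were higher, 2 lower, and 6 did not overlap, 8 of the 88 further genes were lower, and 5635 of all genes were higher and 1647 lower, so 77.4% of calls were higher against 52.0%. At an adjusted p under 0.01, 1 of the 10 was higher and 2 lower, and 18 and 11 of the 88. Of all 13807 genes tested, 2328 were higher and 2056 lower at that threshold. Without the filter on low values 2 of the 10 were lower, beside 10.4% of the 24326 genes then tested. In that setting Mrc1, Fcgr2b, Gpr182, Wnt2, Kit, Angpt2, Vegfa, Cd34, and Vegfd lost their calls. Quantile normalization left 5 of the 10 not overlapping and ended the calls of Mrc1, Kit, Angpt2, and Cd34. A pseudocount of 1 ended that of Angpt2. Clec1b, near 0, changed sign to 0.33 with the Saa genes left out, 0.11 with quantile normalization, 0.010 with array weights, and 0.14 without control mouse 4 and anti-CD40 mouse 5 together, a pair left out after the data were seen, when 6 of the 10 did not overlap. Leaving out 1 mouse moved the counts of the 10 genes to 1 to 3 higher, 2 to 5 lower, and 3 to 5 not overlapping, those of the 88 to 17 to 30 higher and 12 to 23 lower, and Clec1b to -0.11 to 0.090. The mice behind the larger moves were anti-CD40 mouse 2 (2 of the 10 lower, and 17 higher and 12 lower of the 88), anti-CD40 mouse 5 (1 of the 10 higher, 5 not overlapping, 14 of the 88 lower), anti-CD40 mouse 9 (1 of the 10 higher), control mice 3 and 11 (2 lower each), and control mouse 12 (5 not overlapping). The cause of these changes was not tested, except that fewer mice give fewer chances to overlap. No paired analysis was possible because the mouse numbers of the 2 groups are not shared. Counting limits Pgf, Vwf, and Wnt9b, with at most 23, 48, and 37 reads in a liver.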
